A study of Rattus norvegicus with 6 samples.

Results

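Slc10a1, Slc22a5, Slc22a7 and Slc22a8 encode carriers that bring bile salts, carnitine and organic anions into cells, and their transcripts were measured in rat liver. They were chosen by name, as every non-control probe whose transcript accession maps to one of these 4 symbols. This gave 4 probes, 1 per gene, of 30367 probes standing for 26912 genes and features. The 6 livers came from male Wistar Hannover rats, bought at 4 weeks of age and quarantined for 1 week, with 3 rats in each group. Controls received the corn oil vehicle by gavage for 7 days, and the treated rats received 100 mg/kg of pregnenolone-16α-carbonitrile (PCN) per day in the same way. PCN, a steroid made in the laboratory, is a ligand of the pregnane X receptor of rodents, a nuclear receptor that turns on genes of drug metabolism and transport. Each array carries RNA from the whole liver of 1 rat, with all its cell types, and the study has 1 dose and 1 time point.

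Hepatocytes take solutes from blood through carriers in the membrane that faces the sinusoid. Slc10a1 encodes NTCP, the sodium-driven carrier that returns conjugated bile salts to the hepatocyte. Slc22a5 encodes OCTN2, the sodium-driven carrier of carnitine, which mitochondria need to import long-chain fatty acids. Slc22a7 and Slc22a8 encode the organic anion transporters OAT2, a carrier of liver and kidney, and OAT3, known best from the kidney, which move drugs and other anions. The Slc22 family also holds carriers of organic cations.

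The array 75th percentile of processed signal, by which each array was scaled, was 633 to 758 on the control arrays and 488 to 627 on the PCN arrays, lowest on PCN array 3. Values below are processed signal divided by that percentile, and changes are log2 differences, PCN minus control. All 10 hepatocyte markers were well above background on every array. Of these, 0 of 10 passed the test (median change 0.02), against 19.9% of all tested genes. Slide 1 and scan 1 held all control arrays, slide 2 and scan 2 all PCN arrays, and so the effect of the slide and that of PCN cannot be told apart. The labels do not say whether rats of a group shared a cage or a batch, and p-values measure the spread between these samples.

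Slc22a5 was the member that passed the test, and it was lower with PCN. Its scaled signal was 0.618, 0.518 and 0.487 in controls 1 to 3 and 0.316, 0.298 and 0.224 in PCN rats 1 to 3. The groups did not overlap: the highest PCN rat lay below the lowest control. The mean was 0.541 ± 0.0683 (SD, n = 3) in controls and 0.280 ± 0.0490 (SD, n = 3) with PCN. On the log2 scale it fell by 0.96 ± 0.17 (SE), to 51.4% of control (95% interval of the fold 0.390 to 0.677, limma adjusted p = 0.0106). A change of this size or larger was seen in 10.1% of the 16389 tested genes. The 2 spots of its probe differed little within an array, with a log2 SD of 0.01 to 0.08, against 0.18 between control rats and 0.27 between PCN rats. In whole liver, fewer cells that hold a transcript and less transcript per cell cannot be told apart.

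Slc10a1, the bile salt carrier, was measured most finely, by 10 spots per array. Its scaled signal was 31.3, 29.5 and 24.4 in controls 1 to 3 and 33.3, 33.0 and 36.1 with PCN. Each PCN rat lay above each control, and control 3 was the lowest of the 6. The change was 0.27 ± 0.12 on the log2 scale (n = 3 per group), a 1.21-fold ratio with a 95% interval of 0.983 to 1.48, and it did not pass (limma adjusted p = 0.176). Without control 3, the lowest, it was 0.17. Spots of 1 array had a log2 SD of 0.02 to 0.05, against 0.19 between control rats and 0.07 between PCN rats. Scaling by the array median in place of the 75th percentile gave 0.48 (limma adjusted p = 0.0331), a call, where the median over all tested genes also moved, from −0.06 to 0.14. Under spike-in scaling the change was 0.02, with a median over all genes of −0.31.

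Slc22a8, the OAT3 gene, did not pass the test and varied most between PCN rats. Controls gave 34.3, 25.9 and 25.3, and PCN rats 25.4, 21.0 and 14.4. The ranges touched, since PCN rat 1 was level with the 2 lower controls. PCN rat 3 was the lowest, and the coefficient of variation among PCN rats, 27.3%, was the largest of any member in either group. The log2 difference was −0.52 ± 0.23 (limma adjusted p = 0.168), with a 95% interval of the fold from 0.477 to 1.02. Without PCN rat 3 it was −0.29, without PCN rat 1 it was −0.70, and median scaling gave −0.31.

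Slc22a7, the OAT2 gene, had the smallest difference of the members. Its scaled signal was 14.7, 15.4 and 16.4 in controls and 14.0, 11.1 and 15.1 with PCN, so that 1 PCN rat reached into the control range. The log2 difference was −0.22 ± 0.14 (limma adjusted p = 0.305), and the 95% interval of the fold ran from 0.684 to 1.08. Without PCN rat 2, the lowest, it was −0.09, and under median scaling −0.01. Spike-in scaling gave −0.47 (limma adjusted p = 0.0283), past the threshold, when the median of all tested genes was itself −0.31.

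**Figure D1:**
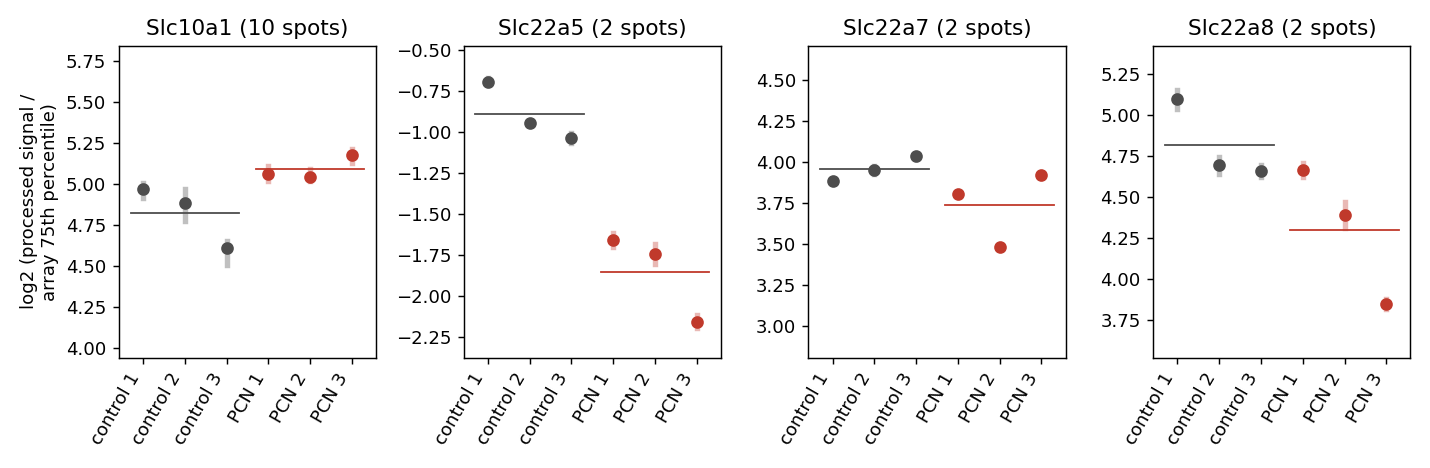
Scaled signal of each transporter on each array, as log2 of processed signal over the array's 75th percentile, where points are array means, pale bars the range over spots of the array, and lines the group means of 3 rats. Slc22a5 and Slc10a1 show no overlap between groups, in opposite directions, while Slc22a7 and Slc22a8 overlap.

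Of the 4 transporters, then, 0 rose and 1 fell, where 4.37% of all tested genes rose, 15.5% fell and 19.9% changed in either direction. The groups did not overlap for 2 of the 4, Slc10a1 and Slc22a5, against 41.4% of all tested genes. The rats did not rank alike across the members. Control 1 was the highest control for Slc10a1, Slc22a5 and Slc22a8 but the lowest for Slc22a7. PCN rat 3 was the lowest PCN rat for Slc22a5 and Slc22a8 and the highest for Slc10a1 and Slc22a7.

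Whether the members changed unequally was asked from the difference of their log2 values on the same array, in which the scaling of the array cancels. The widest gap was that of Slc10a1 and Slc22a5: their difference was 5.65 to 5.83 in controls and 6.72 to 7.33 with PCN, a gap of 1.23. For Slc10a1 against Slc22a8 this gap was 0.79, and for Slc10a1 against Slc22a7 it was 0.49. Slc22a5 against the anion carriers gave −0.74 for Slc22a7 and −0.45 for Slc22a8. In these 5 pairs the groups did not overlap, and each gave p = 0.10 in an exact two-sided permutation test, the smallest that 3 rats against 3 allow (0.12 adjusted over the 6 pairs). Slc22a7 and Slc22a8 gave 0.29, with overlapping groups and p = 0.60 in the same exact test, and without 1 array it ran from −0.02 (PCN rat 3 left out) to 0.47 (PCN rat 2 left out), with 0.12 without control 1. The pairs share members and are not independent, and with normexp background correction the gap of Slc22a5 was −0.18 to Slc22a8 and −0.44 to Slc22a7. Without PCN rat 3 the gap of Slc10a1 to Slc22a8 was 0.52.

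**Figure D2:**
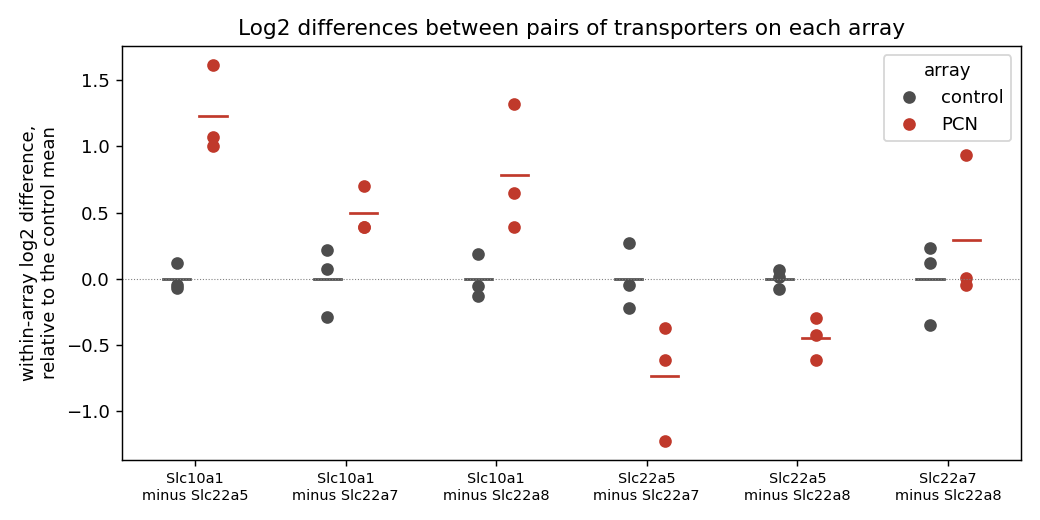
Difference of the log2 values of 2 transporters on the same array, set to 0 at the control mean of each pair; points are single arrays and bars are means of 3. The groups separate in the 5 pairs that hold Slc10a1 or Slc22a5 and overlap for Slc22a7 against Slc22a8.

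Among the other Slc10 genes, 3 of 6 were bright enough to test and 0 passed, against 19.9% of all tested genes. Slc10a3 gave −0.01 ± 0.10, Slc10a7 0.17 ± 0.11 and Slc10a5 −0.45 ± 0.15 (limma adjusted p = 0.977, 0.302 and 0.0788). Slc10a5 was called under spike-in scaling (−0.69, limma adjusted p = 0.0143) and was −0.16 after quantile normalization and −0.11 with normexp. Slc10a7 was 0.38 under median scaling and −0.08 under spike-in scaling, and Slc10a3 ranged from −0.25 to 0.20 over these scalings. Slc10a2, the intestinal bile salt carrier, and Slc10a4 were not well above background on any array, and Slc10a6 was so on 1 PCN array.

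Of the other Slc22 genes with a matched probe, 8 of 15 were tested, of which 2 rose, 1 fell and 5 did not pass. The median was 0.01, against −0.06 over all tested genes, of which 4.37% rose and 15.5% fell. Slc22a4 encodes OCTN1, an ergothioneine carrier related to OCTN2. It rose by 0.54 ± 0.15 (limma adjusted p = 0.0498), with −1.99, −1.54 and −1.97 in controls and −1.43, −1.27 and −1.20 with PCN on the log2 scale. Slc22a4 lies close to Slc22a5 on rat chromosome 10, with Slc22a21, which had no matched probe, between them in the gene order. On the same array the log2 difference of Slc22a4 to Slc22a5 ran from −1.30 to −0.59 in controls and from 0.23 to 0.96 with PCN, a pair set side by side after its values were seen. The call for Slc22a4 was lost without any 1 of control 1 or 3 or PCN 1, 2 or 3 (limma adjusted p = 0.0715 to 0.146), and under spike-in scaling (0.29, limma adjusted p = 0.293).

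Slc22a18, a carrier-like gene of the imprinted cluster, rose by 0.37 ± 0.10 (limma adjusted p = 0.0396), a call lost without any 1 of the 6 arrays (limma adjusted p = 0.0695 to 0.118) and after cyclic loess (limma adjusted p = 0.0509). Spike-in scaling gave 0.12 (limma adjusted p = 0.528) and median scaling 0.57. Slc22a6 encodes OAT1 and stands next to Slc22a8 in the gene order. It fell by 0.71 ± 0.15 (limma adjusted p = 0.0180). The call was lost when control 1 or control 2 was left out (limma adjusted p = 0.0599 and 0.0535) and with normexp, which gave −0.27 (limma adjusted p = 0.115), or quantile normalization, which gave −0.43 (limma adjusted p = 0.0618). Slc22a15, Slc22a17, Slc22a23 and Slc22a25 ranged from −0.32 to 0.05 and did not pass, and the signs of all but Slc22a23 differed between scalings. The other 7 with a probe, among them the kidney genes Slc22a2 and Slc22a12, were not well above background on all 3 arrays of either group and were not tested.

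Promoter sequence was available from RefSeq (GRCr8) for all 4 members and Slc22a4. The 250 bases before the start are shown for Slc22a5 and Slc22a4, the neighbours that passed in opposite directions, and for Slc10a1, for contrast a promoter with few CpG. Capitals mark matches, on either strand, to AGGTCA or AGTTCA (half-sites of nuclear receptors), TATAAA or GGGCGG (GC box), and none of the matches overlapped.
Slc22a5 (chr10:38536073-38536322, minus strand): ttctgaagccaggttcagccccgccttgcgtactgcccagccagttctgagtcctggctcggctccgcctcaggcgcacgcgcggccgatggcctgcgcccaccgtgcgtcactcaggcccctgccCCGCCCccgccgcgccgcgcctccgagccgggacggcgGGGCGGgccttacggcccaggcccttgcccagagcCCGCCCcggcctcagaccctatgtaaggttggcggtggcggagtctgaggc
Slc22a4 (chr10:38679921-38680170, minus strand): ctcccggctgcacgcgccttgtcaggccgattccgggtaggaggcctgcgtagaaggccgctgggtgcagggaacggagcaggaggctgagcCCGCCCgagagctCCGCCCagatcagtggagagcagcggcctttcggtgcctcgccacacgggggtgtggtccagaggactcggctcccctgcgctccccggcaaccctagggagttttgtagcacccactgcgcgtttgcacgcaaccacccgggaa
Slc10a1 (chr6:106357945-106358194, minus strand): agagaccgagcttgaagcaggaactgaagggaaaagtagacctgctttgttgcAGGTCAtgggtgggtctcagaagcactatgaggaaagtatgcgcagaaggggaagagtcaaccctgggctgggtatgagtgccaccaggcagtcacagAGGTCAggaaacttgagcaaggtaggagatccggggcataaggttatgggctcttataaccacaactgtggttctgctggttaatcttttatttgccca
The carnitine and ergothioneine carrier genes each have a promoter rich in CpG: 28 CpG and 74.4% GC for Slc22a5 and 22 CpG and 68.4% GC for Slc22a4, against medians of 5 CpG and 51.2% GC over 33469 promoters. Both hold GC boxes, 3 in Slc22a5 and 2 in Slc22a4, as do 30.5% of all promoter windows of this length. The other members have few CpG, 3 in Slc10a1, 3 in Slc22a7 and 2 in Slc22a8. AGGTCA was found at 2 places in Slc10a1, 197 and 99 bases before the start (14.1% of all windows hold it), and AGTTCA at 1 place in Slc22a7 (12.2%). No TATAAA lay in any of the 5 windows (12.9% of all). These matches are letters in a window, not binding measured here.

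Genes that act with the members were counted from lists by role. A list of the carnitine system holds genes that make carnitine or use it to carry acyl groups, with enzymes of the beta-oxidation that follows (Acadm, Acadl, Acadvl, Hadha, Hadhb), the acyl-CoA synthetase Acsl1 and the receptor Ppara. Over all tested genes 4.37% rose and 15.5% fell, and of the list's 16 tested genes 0 rose and 1 fell (median 0.00). That gene was Crot, the peroxisomal carnitine octanoyltransferase, with 4.28, 4.34 and 4.53 in controls and 3.17, 3.61 and 3.19 with PCN on the log2 scale. It fell by 1.06 ± 0.15 (limma adjusted p = 5.64e-03) and was called under every alternative run. Bbox1, which makes carnitine from its precursor and is named after its value was seen, gave −0.82 ± 0.26 (limma adjusted p = 0.0716), with groups that did not overlap. The gate of mitochondrial import, Cpt1a, and the shuttle Slc25a20, named in the same way, gave 0.02 ± 0.11 and 0.06 ± 0.10 (limma adjusted p = 0.930 and 0.712).

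In bile salt handling 4 of 16 tested genes rose and 1 fell (median 0.01), against 4.37% and 15.5% of all tested genes. Slco1a4, a sodium-independent uptake carrier, rose by 3.41 ± 0.22, and the bile salt export pump Abcb11 by 0.62 ± 0.13 (limma adjusted p = 3.56e-04 and 0.0199). Abcb11 was 1.83, 1.98 and 1.74 in controls and 2.52, 2.27 and 2.63 with PCN on the log2 scale, and lost the call without control 1 or 3 or PCN 1 or 3 (limma adjusted p = 0.0549 to 0.0700) and under spike-in scaling (0.38, limma adjusted p = 0.0850). Abcc3, an efflux pump of the sinusoidal side, was below the well-above-background mark on each of the 3 control arrays. It was at least 5.40-fold higher with PCN (limma adjusted p = 0.0151) where the lowest signal well above background was taken as the floor. It is 1 of the 4, and it entered the test through the PCN arrays alone, so its p rests on control values below the mark. Its fitted log2 change, 2.58, was 0.76 with normexp, which does not reach that bound. Nr0b2 (SHP), a bile acid responsive repressor, fell by 1.66 ± 0.44 (limma adjusted p = 0.0425), a call that did not survive leaving out control 1 or 3 or PCN 1 or 2 (limma adjusted p = 0.0961 to 0.116) or median scaling (limma adjusted p = 0.0518).

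A list of organic anion and cation handling holds carriers, efflux pumps and scaffolds, and also the metabolic enzymes Uox, Xdh, Tat and Cps1. Of its 18 tested genes 3 rose and 2 fell (median −0.06), against 4.37% and 15.5% of all tested genes. None of the listed genes that passed was among these enzymes. The scaffold genes Nherf1 and Pdzk1, whose proteins hold carriers in the membrane, rose by 1.09 ± 0.17 and 0.84 ± 0.15 (limma adjusted p = 7.71e-03 and 0.0123), both called under every alternative run. Among the efflux pumps, Abcb1a rose by 1.40 ± 0.25 and Abcg2 fell by 0.79 ± 0.21 (limma adjusted p = 0.0108 and 0.0388). Abcb1b, a brighter pump gene named after its value was seen, gave 0.02 ± 0.11 and did not pass (limma adjusted p = 0.916). Leaving out any 1 array other than PCN 2 ended the call for Abcg2 (limma adjusted p = 0.0531 to 0.110), as did quantile normalization, median scaling and cyclic loess (limma adjusted p = 0.0783, 0.0836 and 0.0745). With normexp Abcb1a was 0.88 and Abcg2 −0.51, both called.

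Of 22 transcription factors and hormone receptors known to act on such transporter genes, 1 rose and 4 fell (median −0.04). The shares over all tested genes were 4.37% and 15.5%. The prolactin receptor Prlr fell by 1.45 ± 0.26 (limma adjusted p = 0.0111), called under every alternative run, while Stat5b, named after its value was seen, gave 0.33 ± 0.14 (limma adjusted p = 0.158). Hnf4a, a master factor of hepatocyte genes, rose by 0.63 ± 0.13 (limma adjusted p = 0.0160), but missed the threshold once control 3 was left out (limma adjusted p = 0.0565) and under spike-in scaling (0.38, limma adjusted p = 0.0824). Ppard and the coactivator Ppargc1a fell, with −0.94 ± 0.18 and −1.62 ± 0.41 (limma adjusted p = 0.0143 and 0.0366). The dimmer probe of Ppard gave −0.44 and did not pass with every probe tested on its own (limma adjusted p = 0.0951). Ppard lost the call without control 1 (limma adjusted p = 0.0525), after quantile normalization (−0.59, limma adjusted p = 0.0542) and with normexp (−0.24, limma adjusted p = 0.180). Ppargc1a lost it without control 3 or any 1 PCN array (limma adjusted p = 0.0752 to 0.0908), after quantile normalization or cyclic loess (limma adjusted p = 0.0786 and 0.0632), when refitted on the authors' deposited value table (limma adjusted p = 0.0557) and with normexp (−0.48, limma adjusted p = 0.176).

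Markers of other liver cells were measured beside these values, where 4.37% of all tested genes rose and 15.5% fell. Of 9 Kupffer cell markers 0 passed (median −0.39), and their summed level on the log2 scale was 6.04 to 6.26 in controls and 5.57 to 6.09 with PCN, lowest on PCN array 3. Of 4 T cell markers 2 fell, Cd3d by 0.66 and Lck by 0.67 (limma adjusted p = 0.0108 and 0.0203). Of 6 endothelial markers 1 fell, Cdh5 by 0.49, close to the threshold (limma adjusted p = 0.0496). The marker calls were not followed through the alternative runs. Lck was well above background on all 3 control arrays but on 1 PCN array only. It entered the test through the controls, and its p rests partly on PCN values below the mark. Of 9 stellate cell markers 1 rose (Rgs5) and 2 fell (Acta2 and Lrat), and of 4 cholangiocyte markers 0 passed. The summed hepatocyte level was 11.2 to 11.3 in controls and 11.1 to 11.4 with PCN. The part of these cells in the values of the transporters was not tested.

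The genes most like each transporter over the 6 arrays were found by Pearson correlation among 9978 tested genes with an official-style symbol. Slc22a5 was followed most closely by Ins1 (r = 0.998), Mettl26 (0.995) and Mark4 (0.994), and Slc10a1 by Crebbp and Fam13a (0.987 each) and Wwtr1 (0.982). Nearest to Slc22a7 were Tmprss6 (0.994), Pck1 (0.986) and Tspan14 (0.982), and to Slc22a8 Derl3 (0.995), C13h1orf53 (0.989) and Mzf1 (0.986). The 6 points hold both treatment groups, so a shared group difference raises r. Taking the highest of 9978 genes over 6 points raises it too, and these are descriptions.

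**Figure D3:**
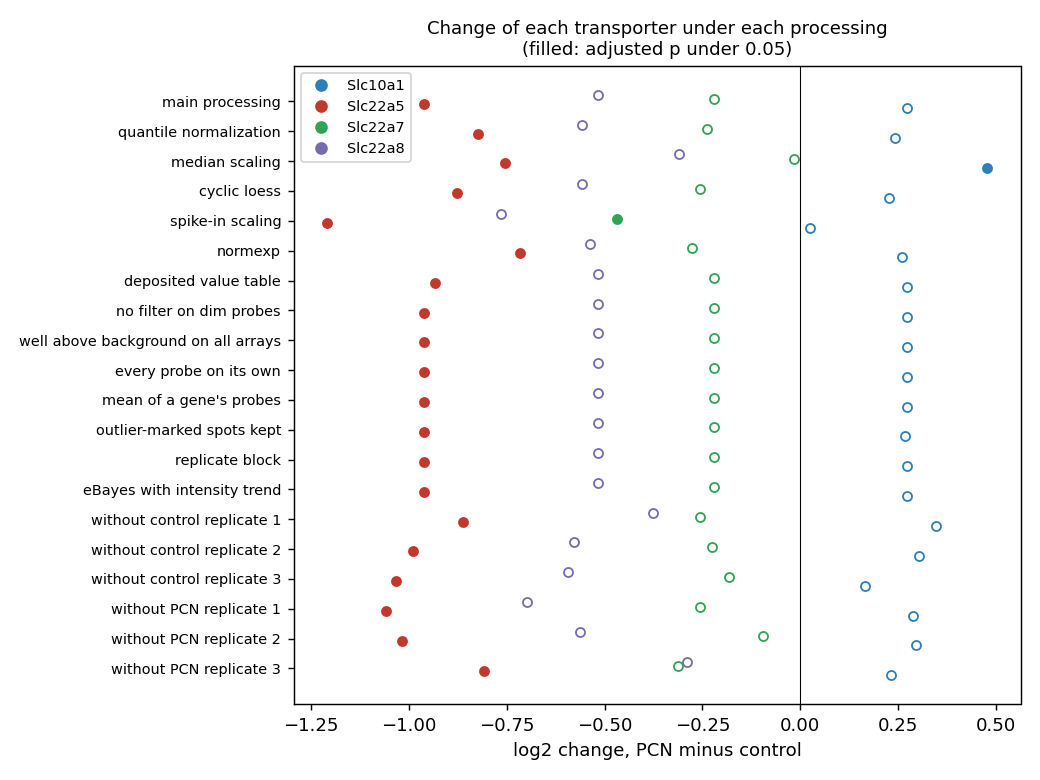
Log2 change (PCN minus control) of each transporter under the main processing, 13 alternatives and 6 fits with 1 array left out; filled points have adjusted p under 0.05. Slc22a5 stays between −1.21 and −0.72 and filled throughout, while Slc10a1 is filled under median scaling and Slc22a7 under spike-in scaling.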

How the data were processed

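Cy3-labelled cRNA from 100 ng of liver RNA per rat was hybridised to 1-colour Agilent arrays, per the labels. The deposited intensity values were made by the authors with Agilent Feature Extraction 10.7.3.1 (build rn4), per the file headers. The processed signal has its background subtracted, with no scaling across arrays, and the scanner files mark outlier, saturated and well-above-background spots. The authors' deposited value table matched, for the 24770 brighter spots, a linear ratio of that signal to the array's 75th percentile, and how it was made was not stated by the labels or headers. In R 4.3.3, log2 signal minus the 75th percentile over non-control spots was taken, spots marked as outliers were left out (1 of 10 for Slc10a1 on control array 3) and spots of a probe averaged. A probe was tested if well above background on all 3 arrays of a group, and a gene was represented by its brightest probe. Groups were compared with limma 3.58.1 (two-sided, Benjamini-Hochberg over 16389 genes, threshold 0.05), tested on simulated data. Of 30367 probes, 18004 matched 1 symbol. A bound takes, in the dim group, the higher of the probe's signal and the lowest signal well above background. The members and gene lists were chosen with earlier results of these data known. Named are the members, the tested Slc10 and Slc22 genes, up to 4 called genes per other list (up to 2 with none called), any list gene above background in 1 group only, and the 3 genes most correlated with each member. Alternatives covered scaling, background, filters, probes, outlier spots, the replicate block, the variance prior and leaving out each array. The number of arrays limits precision. Some genes of the lists are counted but not reported by name here.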

Additional observations from a re-analysis of the deposited data

How the results depend on the processing

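Slc22a5 was called lower in all 19 alternatives run, and no member changed sign in any of them. Slc10a1 became a call with median scaling (0.48) and Slc22a7 with spike-in scaling (−0.47); all other alternatives left both uncalled, and Slc22a8 was uncalled throughout. The number of genes called, 3263, was 1967 with no filter on dim probes, 2224 with normexp, 4552 with median scaling, 4748 with spike-in scaling and 2023 to 2592 without 1 array (2023, 2112 and 2048 without control 1, 2 and 3). The share of lower genes among those called, 78.1%, was 96.4% with spike-in scaling, 65.0% with cyclic loess, 64.4% with normexp, 55.4% after quantile normalization and 41.0% under median scaling. With the replicate block 2067 genes were called, and Slc22a5 stayed called (−0.96, limma adjusted p = 0.0183). That block ended the calls of Slc22a4, Slc22a18, Abcb11, Nr0b2, Abcg2, Ppard and Hnf4a (limma adjusted p = 0.0564 to 0.0951). Same-numbered rats did not deviate together (r = −0.10 to −0.03). The labels do not say whether the numbers pair rats, and these correlations cannot settle it. With normexp the gap between Slc10a1 and Slc22a5 was 0.98 and that between Slc22a5 and Slc22a8 −0.18; the cause was not tested. Normexp was run on the median spot signal. Of 455 values for the other genes chosen by the naming rule 65 lost and 1 gained the call, and none of those called turned direction. With no filter, where more genes are tested, the calls of Slc22a4, Slc22a6, Slc22a18, Nr0b2, Abcb11, Abcg2, Ppargc1a and Hnf4a were lost; with every probe tested on its own that of Slc22a4 was (limma adjusted p = 0.0513).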
